A study of Mus musculus with 10 samples.

Results

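SLIT proteins are secreted ligands of the ROBO family of transmembrane receptors. The set described here holds 8 of the 53167 gene symbols counted in cultured mouse mammary epithelial cells: the ligand genes Slit1, Slit2 and Slit3, the receptor genes Robo1, Robo2, Robo3 and Robo4, and Srgap1, which encodes a GTPase-activating protein that binds the intracellular part of ROBO receptors. All 8 were found by their symbols. The set was put together with results of the same comparison known, since Slit2 had the smallest unadjusted p of all genes tested between the groups. Its fold changes are therefore given as a description and support nothing. Of the 8 genes, 5 passed the filter on low counts (Slit1, Slit2, Robo1, Robo2 and Srgap1), and 14415 genes passed in all.

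RNA was sequenced from primary mammary epithelial cells of wild-type mice in 10 libraries. The BGN group held 5 libraries from cells given 100 ng/mL of biglycan (BGN), a proteoglycan of the extracellular matrix with leucine-rich repeats. The Control group held 5 libraries from cells given no biglycan. All cells were grown in DMEM with serum and antibiotics. The labels do not give the length of the stimulation. They also leave unsaid whether each replicate was its own animal or culture, and the p-values therefore reflect variation among these libraries that could be technical.

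When SLIT binds a ROBO receptor, adaptor proteins and GTPase-activating proteins recruited to the receptor change the activity of small GTPases and with it the actin cytoskeleton. The pathway was first described as a repellent signal for growing axons. In the mouse mammary gland Slit2 and Robo1 are known for holding the basal and luminal cell layers together and for limiting basal cell proliferation during branching. SLIT and ROBO signalling is also known there for a role in progenitor cell division.

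Total counts per library lay between 18292624 and 21820560. The cells carried epithelial transcripts in all 10 libraries: 5 pan-epithelial markers summed to 2468 to 2498 CPM (counts scaled to a common total per library) in BGN and 2441 to 2571 CPM in Control, 8 basal markers to 5422 to 5696 CPM in BGN libraries and 5360 to 6625 CPM in Control libraries, and 10 luminal markers to 2877 to 3125 CPM in BGN libraries and 2984 to 3387 CPM in Control libraries. Of the basal markers, the contractile genes Myh11 and Cnn1 were below 1 CPM. Control replicate 5 stood apart on the second principal component of all tested genes, at -26.9, with 1.16% of its counts on mitochondrially encoded genes, where the remaining 9 libraries had 1.80% to 2.27%. On the first component BGN replicate 5 was the most extreme, at 21.0. In bulk RNA, a smaller number of cells of one type and less RNA per cell cannot be told apart.

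The promoters of an abundant and a scarce gene of each family are shown first. The reason is that within each family these genes differed far more in level than any tested member did between the groups. Each sequence is the 250 bases before the transcription start that RefSeq lists for the gene, in build GRCm38.p6, read 5′ to 3′ along the gene's strand, with CG dinucleotides in capitals. The reads were aligned to GRCm39, and the data do not show which start was used.
Slit2, chr5:47982905-47983154, plus strand: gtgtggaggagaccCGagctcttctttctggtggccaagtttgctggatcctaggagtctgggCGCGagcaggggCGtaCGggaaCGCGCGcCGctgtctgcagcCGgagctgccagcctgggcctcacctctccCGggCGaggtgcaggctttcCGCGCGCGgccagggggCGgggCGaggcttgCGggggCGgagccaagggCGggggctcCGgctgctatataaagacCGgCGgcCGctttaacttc
Slit3, chr11:35121206-35121455, plus strand: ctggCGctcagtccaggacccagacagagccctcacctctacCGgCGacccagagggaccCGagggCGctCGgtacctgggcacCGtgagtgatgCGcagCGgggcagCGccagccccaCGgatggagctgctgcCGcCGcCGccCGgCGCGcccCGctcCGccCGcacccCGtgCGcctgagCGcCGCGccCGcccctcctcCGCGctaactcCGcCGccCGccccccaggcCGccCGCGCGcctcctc
Robo1, chr16:72662899-72663148, plus strand: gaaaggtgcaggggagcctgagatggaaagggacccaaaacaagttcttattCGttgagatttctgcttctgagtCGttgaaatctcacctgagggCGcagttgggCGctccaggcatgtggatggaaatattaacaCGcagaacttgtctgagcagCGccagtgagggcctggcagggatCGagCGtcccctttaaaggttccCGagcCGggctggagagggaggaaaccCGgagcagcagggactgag
Robo4, chr9:37401722-37401971, plus strand: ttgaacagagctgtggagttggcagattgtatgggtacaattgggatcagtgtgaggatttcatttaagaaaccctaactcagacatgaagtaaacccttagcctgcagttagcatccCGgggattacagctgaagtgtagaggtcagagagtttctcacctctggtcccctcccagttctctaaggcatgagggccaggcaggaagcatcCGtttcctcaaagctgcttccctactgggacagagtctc

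The Slit2 window held 25 CG dinucleotides and the Slit3 window 35. Of 32536 promoter windows of the same length, 10.8% held at least 25 and 3.00% at least 35, with a median of 6. The Robo1 window held 11, a count that 35.8% of windows reached, and the Robo4 window 2, which 81.4% reached. The window of the scarce Robo3 held 12, and the 3 windows listed for Robo2 held 8, 4 and 14. A core of the motif bound by TCF and LEF factors, the DNA-binding partners of beta-catenin, was searched as CTTTGA on both strands, since the study names WNT signalling. It was absent from the Slit2, Slit3 and Robo1 windows and occurred 1 time in that of Robo4, and 13.9% of all windows held it. A match of letters is not a binding site, and these windows cover a small part of what can regulate a gene. RefSeq windows were found for 7 of the 8 genes.

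Slit2 was almost the only ligand transcript. Levels of different genes are compared as CPM per kb, the CPM scaled with TMM factors (a correction for composition) and divided by the longest annotated transcript of each gene. On this scale Slit2 averaged 4.91 ± 0.490 CPM per kb over the 10 libraries (SD, n = 10), Slit1 0.190 ± 0.103 CPM per kb and Slit3 0.0102 ± 0.0176 CPM per kb. Slit2 made up 96.2 ± 2.05% of the summed SLIT level per length in BGN and 95.9 ± 2.25% in Control (SD, n = 5 each). The lowest share in any library was 93.3% in BGN and 92.8% in Control.

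Robo1 and Robo2 made up nearly all of the receptor transcripts. Robo1 was the most abundant of the 8 genes, at 13.1 ± 1.66 CPM per kb over the 10 libraries, and its lowest library, at 10.5 CPM per kb, lay above the highest of any other member. Robo2 followed at 6.24 ± 0.545 CPM per kb. Robo1 held 67.1 ± 1.95% of the summed ROBO level per length in BGN and 68.2 ± 3.67% in Control, and Robo2 32.8 ± 1.98% in BGN and 31.8 ± 3.65% in Control (SD, n = 5 each). The ratio of Robo1 to Robo2 per length was 1.84 to 2.29 among BGN libraries and 1.79 to 2.58 among Control libraries, so its ranges overlapped.

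In the order of level per length, Slit2 at 4.91 and Srgap1 at 4.83 ± 0.624 CPM per kb held places 3 and 4, and they did not differ beyond their spread. Their ranges over the 10 libraries were 4.11 to 5.57 and 3.94 to 6.003 CPM per kb. Scaled by coding length, or without the replicates numbered 5 of both groups, Srgap1 came before Slit2. The ranges of Robo2 (5.34 to 6.93 CPM per kb) and Slit2 also overlapped. A clear gap followed: Slit1, in place 5, reached 0.358 CPM per kb in its highest library, while the lowest library of Srgap1 stood at 3.94. Robo3, Slit3 and Robo4 came last, and the ranges of each neighbouring pair among them overlapped.

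**Figure D1:**
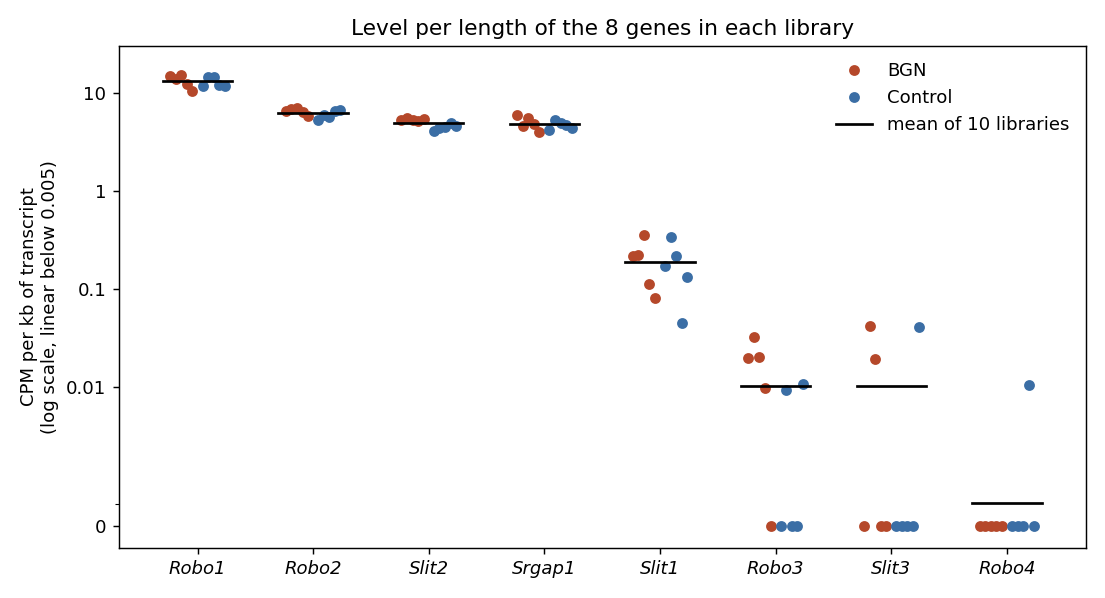
Level per length of the 8 genes, as CPM per kb of the longest annotated transcript, in each BGN library (left cloud of each gene) and Control library (right cloud), on a logarithmic axis that is linear below 0.005; the line is the mean of 10 libraries. Robo1, Robo2, Slit2 and Srgap1 lie between 3.94 and 15.2, Slit1 between 0.0456 and 0.358, and Robo3, Slit3 and Robo4 at or near 0.

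The scarce members were counted by single reads. Slit3, a ligand that binds the same receptors as Slit2, had 0, 4, 2, 0 and 0 counts in BGN replicates 1 to 5, against 0, 0, 0, 0 and 4 in Control replicates 1 to 5. Robo3, a divergent receptor known from commissural neurons, had 2, 3, 2, 1 and 0 counts in BGN, against 0, 1, 0, 0 and 1 in Control. Both groups held libraries at 0 and libraries with counts for these genes. Summed over each group, Robo3 stood at 0.0798 CPM in BGN (exact Poisson 95% interval 0.0345 to 0.157) and 0.0208 CPM in Control (0.00252 to 0.0750), and the intervals, which cover counting error only, overlapped.

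Robo4, a receptor known from vascular endothelium, had 0 counts in BGN, which allows a level of up to 0.0299 CPM (3 counts over the group), and 1 count in Control, in replicate 4. Of 10 endothelial markers 1, Pecam1, passed the filter on low counts, 9 were below 1 CPM and Cldn5 had 0 counts. Their sum was 5.48 to 6.27 CPM in BGN libraries and 6.22 to 7.27 CPM in Control libraries, of which Pecam1 gave 5.25 CPM on average. Among 10 neuronal markers 9 were below 1 CPM and Elavl3, Elavl4 and Nefm had 0 counts. Their sum of 53.9 to 68.1 CPM in BGN libraries and 57.6 to 75.9 CPM in Control libraries came almost entirely from the tubulin-binding protein gene Stmn2, at 64.2 CPM on average.

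Slit2, the main ligand, had the smallest spread within groups and the largest fold change of the 5 tested members. Both traits favour a small p, and Slit2 was chosen by its p, so neither is read as a result. Its level was 52.2, 55.4, 52.7, 50.9 and 53.6 CPM in BGN replicates 1 to 5, against 41.0, 43.5, 44.7, 48.8 and 45.7 CPM in Control replicates 1 to 5. All 5 BGN libraries lay above the highest Control library, replicate 4. Groups that did not overlap with BGN higher were found for 54 of the 14415 genes tested (0.375%), and because Slit2 was chosen from this contrast nothing is read from its place among them. The means were 53.0 ± 1.70 CPM in BGN libraries and 44.7 ± 2.87 CPM in Control libraries (SD, n = 5 each). This is a 1.18-fold difference, or 0.24 ± 0.052 on the log2 scale (SE, 95% interval 0.14 to 0.35). The interval is not adjusted for the choice of Slit2 by its p, so its distance from 0 secures no difference. The adjusted p was 0.883 (edgeR quasi-likelihood test, Benjamini-Hochberg adjusted over 14415 genes), and Slit2 was not called.

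Markers of other cell types were mostly scarce. Of 10 fibroblast markers, genes of a cell type that also makes SLIT ligands, 5 passed the filter on low counts, 6 were below 1 CPM and Dpt had 0 counts. Their sum was 55.9 to 62.6 CPM in BGN libraries and 48.3 to 71.8 CPM in Control libraries, with Pdgfra the highest at 38.7 CPM and Col1a1 and Col1a2 at 4.42 and 0.316 CPM on average. Both the lowest and the highest sum lay in Control libraries. Of 8 myeloid markers 5 were below 1 CPM and Adgre1 had 0 counts, and their sum was 384 to 419 CPM in BGN libraries and 381 to 452 CPM in Control libraries, nearly all from Cd14 at 402 CPM. The part of these cell types in the Slit2 values was not tested.

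Slit1, the scarcer ligand that passed the filter, varied widely. It had 25, 23, 40, 13 and 10 counts in BGN replicates 1 to 5, against 18, 41, 23, 5 and 14 counts in Control replicates 1 to 5. The highest library was BGN replicate 3, at 2.03 CPM, and the lowest Control replicate 4, at 0.259 CPM, a span of 7.86-fold. The groups overlapped, at 0.456 to 2.03 CPM in BGN libraries and 0.259 to 1.93 CPM in Control libraries. The means were 1.13 ± 0.619 CPM in BGN libraries and 1.03 ± 0.616 CPM in Control libraries, and the log2 fold change of 0.099 had a 95% interval of -0.89 to 1.09, which is a fold of 0.538 to 2.13. The spread within groups was wide, with an SD of 0.85 on the log2 scale, while the exact Poisson 95% intervals of the group sums, which cover counting error only, were 0.911 to 1.33 CPM in BGN and 0.854 to 1.27 CPM in Control. The sign turned without BGN replicate 3 (-0.23) or Control replicate 4 (-0.15).

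Robo1, the most abundant receptor, overlapped widely between the groups. It stood at 113, 104, 115, 93.2 and 79.6 CPM in BGN replicates 1 to 5, against 89.2, 111, 110, 90.4 and 89.2 CPM in Control replicates 1 to 5. Both the highest library, replicate 3, and the lowest, replicate 5, belonged to BGN. The means were 101 ± 14.7 CPM in BGN libraries and 98.0 ± 11.5 CPM in Control libraries (SD, n = 5 each). The estimate was 0.041 ± 0.12 on the log2 scale (SE, 95% interval -0.22 to 0.30), with an adjusted p of 0.988 by edgeR. Its sign turned without BGN replicate 1 (-0.0023) or BGN replicate 3 (-0.011), and it was 0.12 without BGN replicate 5.

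Robo2, the less abundant of the main receptors, lay at 56.0, 59.0, 59.5, 54.4 and 49.3 CPM in BGN replicates 1 to 5. The Control libraries held 45.8, 50.7, 48.7, 55.9 and 56.8 CPM of it. Of the BGN libraries 4 lay above the Control median, and the groups overlapped. The means were 55.6 ± 4.14 CPM in BGN libraries and 51.6 ± 4.67 CPM in Control libraries, with an estimate of 0.11 ± 0.062 on the log2 scale (SE, 95% interval -0.021 to 0.24), with an adjusted p of 0.945 by edgeR. Without the replicates numbered 5 of both groups it was 0.19 ± 0.057 (adjusted p = 0.624 by edgeR), and it was 0.069 without Control replicate 1.

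Srgap1, whose product is known to switch off Cdc42 downstream of ROBO, was at 46.7, 36.1, 42.8, 37.5 and 30.7 CPM in BGN replicates 1 to 5. In Control replicates 1 to 5 it was at 32.5, 40.8, 38.7, 36.3 and 34.1 CPM. The highest library and the lowest were again both in BGN. The means were 38.8 ± 6.20 CPM in BGN libraries and 36.5 ± 3.38 CPM in Control libraries, with an estimate of 0.085 ± 0.10 on the log2 scale (SE, 95% interval -0.14 to 0.31), with an adjusted p of 0.977 by edgeR. It was 0.0082 without BGN replicate 1 and 0.16 without BGN replicate 5.

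**Figure D2:**
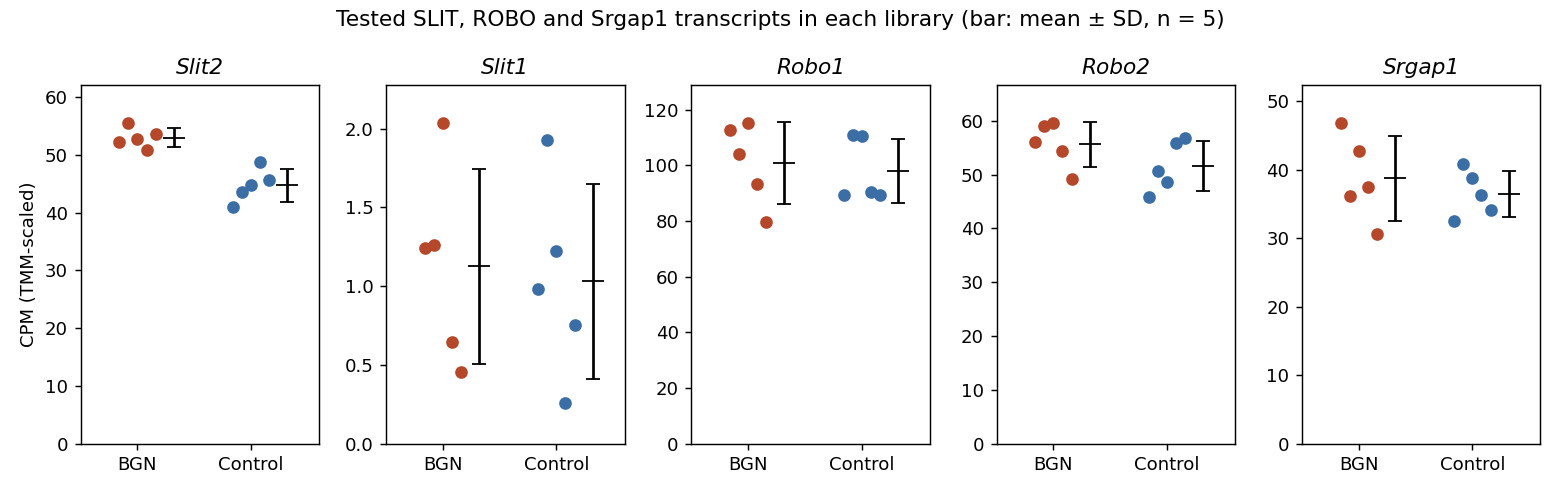
TMM-scaled CPM of the 5 tested members in each BGN (left) and Control (right) library, with the mean and SD of each group (n = 5) as a bar; each panel has its own axis from 0. Only in the Slit2 panel do the groups not overlap, at 50.9 to 55.4 CPM in BGN libraries and 41.0 to 48.8 CPM in Control libraries.

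None of the 5 tested members was called, and neither was any other gene: 0 of 14415 genes (0%) had an adjusted p under 0.05 by edgeR, 0 by DESeq2 and 0 by limma-voom. An unadjusted p under 0.05 was found for 694 genes (4.81%) by edgeR, 662 by DESeq2 and 808 by limma-voom, and Slit2 was the only tested member among those of edgeR. All 5 tested members had estimates above 0, with a median log2 fold change of 0.099, against 48.0% of all genes tested and a median of -0.0040. The contrast chose the set, so this count is a description.

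Library to library, the tested members fell into different patterns. Within groups the SD of log2 CPM was 0.073 for Slit2 and 0.12 for Robo2, against 0.19 for both Robo1 and Srgap1, and the median over the 11965 genes averaging 50 counts or more was 0.0997. The small SD of Slit2 is a description only, since the choice by p favours it. Robo1 and Srgap1 were high in the same libraries, with Pearson's r = 0.893 and Spearman correlation = 0.952 over the 10 libraries (permutation p = 0.000390 and 0.000160, or 0.0039 and 0.0016 after Benjamini-Hochberg adjustment over 10 pairs). Without BGN replicates 3 and 5, the libraries farthest from the Robo1 median, r was 0.817, and between deviations from the group means it was 0.897. Slit1 also followed Robo1 (r = 0.812, Spearman correlation = 0.794, adjusted permutation p = 0.0215 and 0.0444), with r = 0.829 without BGN replicate 5 and Control replicate 4. The Slit1 values rest on 5 to 41 counts per library. These permutation p-values are against no correlation at all and do not set a pair apart from other genes. Among other genes averaging 50 counts or more, an absolute r of at least 0.8 was reached by 4.54% with Robo1. The share was 2.8% with Slit1 and 2.02% with Srgap1. The 4 other pairs that do not include Slit2 had adjusted permutation p of at least 0.168.

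Slit2 did not share that pattern. Its correlation with Robo1 was r = 0.0528 and Spearman correlation = 0.127, and between deviations from the group means r was -0.0888. With Robo2 it was r = 0.666 and Spearman correlation = 0.612, and the deviations from the group means gave r = 0.631. The r with Robo2 was 0.368 without Control replicates 1 and 2, the libraries farthest from the Slit2 median, and 0.95 without the replicates numbered 5 of both groups. These values are a description with no test, since the levels of Slit2 include the group difference that chose it.

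The pattern of Robo1 was a wide one. Its log2 CPM had an r of -0.911 with the first principal component of all tested genes, which held 18.5% of the variance, and 4.54% of 11964 other genes had an absolute r of at least 0.8 with it. The r with that component was -0.867 for Slit1, -0.741 for Srgap1, -0.271 for Robo2 and 0.112 for Slit2, and 1.06% of other genes reached an absolute r of 0.8 with Slit2. The part of this component in the correlations of Robo1 with Srgap1 and Slit1 was not tested. The genes most like Robo1 over the 10 libraries were Fndc3a, the transcription factor genes Maf and Fosl2, Sec63, which serves protein entry into the endoplasmic reticulum, and Lyst, a lysosomal trafficking gene, with r between 0.953 and 0.970. Their deviations from the group means correlated with those of Robo1 at 0.954 to 0.972.

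The genes most like Slit2 were Gclm, a subunit of the enzyme that starts glutathione synthesis (r = 0.979), the zinc finger gene Zfp711 (r = 0.969), the hyaluronan receptor gene Cd44 (r = 0.960), the RNA-binding protein gene Celf2 (r = 0.946) and the histone methyltransferase gene Kmt5b (r = 0.931). These correlations share the 10 libraries and the group difference that chose Slit2. Between deviations from the group means they were 0.904, 0.896, 0.893, 0.777 and 0.656 in the same order. Gclm averaged 103 ± 2.42 CPM in BGN libraries and 93.2 ± 3.11 CPM in Control libraries (SD, n = 5 each), and Zfp711 5.10 ± 0.302 CPM in BGN libraries and 3.92 ± 0.501 CPM in Control libraries. None of these genes was called by edgeR, with an adjusted p of 0.945 for each.

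**Figure D3:**
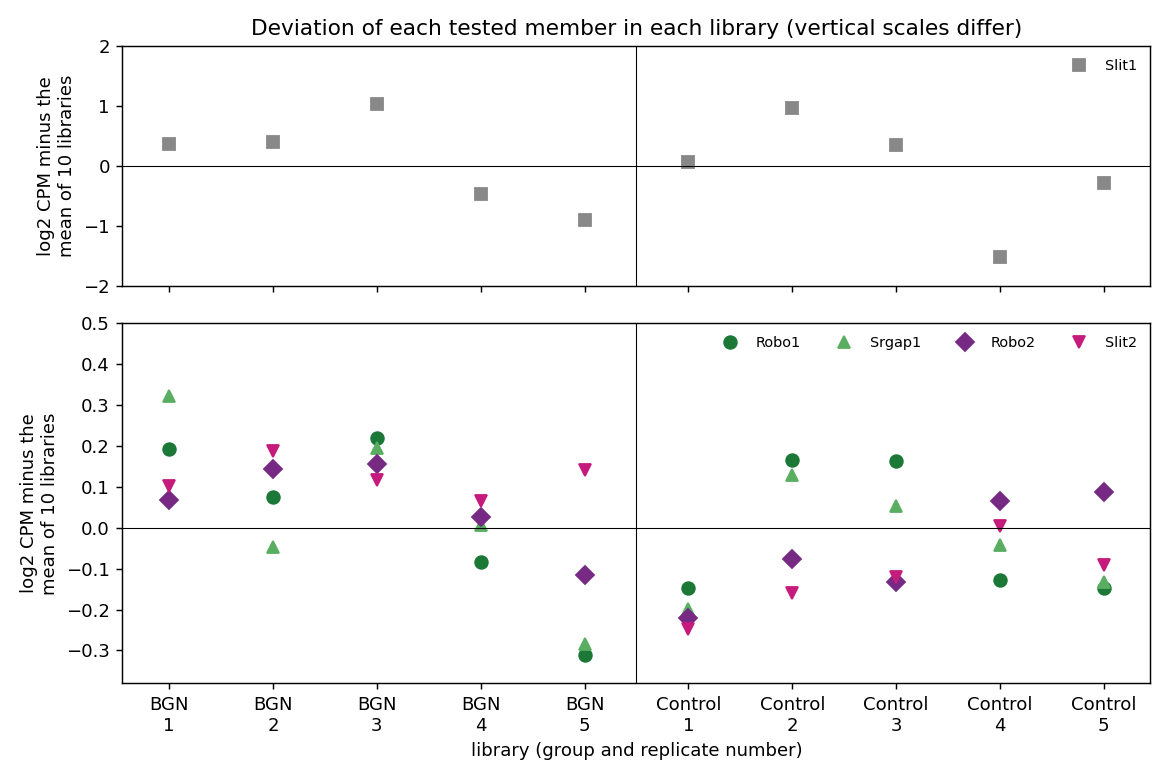
Log2 CPM of each tested member minus its mean over the 10 libraries, for the BGN libraries (left) and Control libraries (right); Slit1 has its own vertical scale. Robo1 and Srgap1 are both lowest in BGN replicate 5, at -0.31 and -0.28, where Slit2 stands at 0.14.

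In the intracellular arm of the pathway no tested gene was called, in a comparison where no gene at all was called. The 95% intervals of the tested effectors reached as far as 0.26 from 0 on the log2 scale, and equality of levels was not tested. Of 21 listed effectors 20 were tested and 0 passed in either direction. Of these, 10 had estimates above 0 and 10 below, with a median log2 fold change of -0.0040. The most abundant were the GTPase genes Cdc42, Rhoa and Rac1 and the actin regulator gene Cap1. Cdc42 was at 648 ± 16.7 CPM in BGN libraries and 641 ± 37.1 CPM in Control libraries, and Rhoa at 489 ± 8.24 CPM in BGN libraries and 489 ± 24.3 CPM in Control libraries. Rac1 was at 392 ± 10.1 CPM in BGN libraries and 380 ± 27.1 CPM in Control libraries. Cap1 was at 355 ± 12.6 CPM in BGN libraries and 373 ± 11.6 CPM in Control libraries, an estimate of -0.069 on the log2 scale (95% interval -0.15 to 0.012). The exchange factor genes Sos1 and Sos2, recruited to ROBO through adaptors in flies, were the 2 effectors with an unadjusted p under 0.05, and are named after their values were seen. Of all 14415 genes tested, 4.81% had such a p by edgeR, so the 2 are no result about the effectors. Their log2 fold changes were 0.11 and 0.12, with an adjusted p of 0.945 for both by edgeR.

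Among genes listed around SLIT binding and processing none was called either, with 95% intervals that reached as far as 0.29 from 0 on the log2 scale. The list includes heparan sulphate synthesis genes, and genes such as Nell2 whose product binds a ROBO receptor. Of 15 listed 11 were tested, 6 above and 5 below 0, with a median log2 fold change of 0.0051 and 0 called in either direction. The heparan sulphate proteoglycan gene Sdc1 stood at 859 ± 37.5 CPM in BGN libraries and 893 ± 39.0 CPM in Control libraries. Dag1, whose product dystroglycan binds SLIT, stood at 784 ± 24.3 CPM in BGN libraries and 763 ± 38.5 CPM in Control libraries. The heparan sulphate synthesis genes Ext1 and Hs6st1 had log2 fold changes of 0.034 and 0.027, with 95% intervals of -0.047 to 0.11 and -0.060 to 0.11. Nell1 and Nell2, of which Nell2 encodes a ligand of Robo3, had 0 counts in all libraries.

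Netrins form a neighbouring guidance system that is also known from the mammary end bud. Of 11 listed netrin and receptor genes 6 were tested, 4 above and 2 below 0, with a median log2 fold change of 0.061 and 0 called in either direction. The median over all genes tested was -0.0040, with 48.0% above 0. The ligand gene Ntn1 stood at 215 ± 5.90 CPM in BGN libraries and 222 ± 5.55 CPM in Control libraries. Its receptor gene Neo1 stood at 186 ± 6.96 CPM in BGN libraries and 181 ± 9.40 CPM in Control libraries. Ntn4, another ligand gene, had a log2 fold change of 0.091 (95% interval -0.027 to 0.21) and the receptor gene Unc5b of -0.013 (-0.19 to 0.17). The classical netrin receptor gene Dcc had 0 counts in all libraries.

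Of 10 genes reported downstream of SLIT and ROBO in mammary cells 9 were tested, 7 above and 2 below 0, with a median log2 fold change of 0.044 and 0 called in either direction. Over all genes tested, 48.0% had estimates above 0 and the median was -0.0040. No shift of the list was tested. The beta-catenin gene Ctnnb1 had a log2 fold change of 0.015 (95% interval -0.076 to 0.11), the E-cadherin gene Cdh1 of 0.045 (-0.031 to 0.12), Myc of 0.020 (-0.074 to 0.11) and Snai2, a transcription factor of basal and progenitor cells, of 0.045 (-0.092 to 0.18). Snai1, with an estimate of -0.40 (95% interval -0.69 to -0.11), was the 1 gene of this list with an unadjusted p under 0.05 (adjusted p = 0.945 by edgeR). It is named after its value was seen, and 4.81% of all genes tested had such a p by edgeR. The other gene below 0 was Axin2, at -0.22 (-0.54 to 0.099). Bgn itself was at 9.74 ± 1.71 CPM in BGN libraries and 7.38 ± 1.88 CPM in Control libraries (SD, n = 5 each). The groups overlapped, at 8.23 to 12.3 CPM in BGN and 4.68 to 9.21 CPM in Control. Its log2 fold change was 0.40 ± 0.16 (SE, adjusted p = 0.945 by edgeR), and it was not called.

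**Figure D4:**
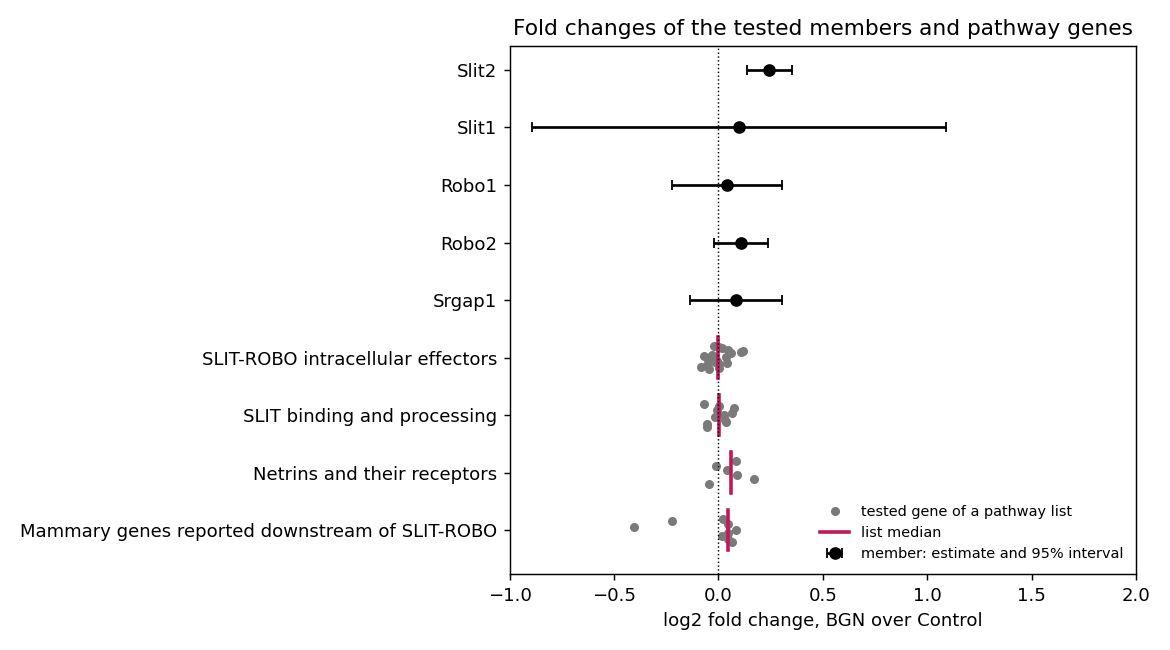
Log2 fold change, BGN over Control, of the 5 tested members with 95% intervals (black) and of every tested gene of the 4 pathway lists (grey dots, median as a bar). The Slit2 interval runs from 0.14 to 0.35 and that of Slit1 from -0.89 to 1.09, and the list medians lie between -0.0040 and 0.061. No interval is adjusted for the choice of Slit2 by its p.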

How the data were processed

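The authors deposited unscaled counts, whole numbers of reads for each gene symbol and sample, from poly-A selected NEBNext Ultra libraries per the labels' protocols. Per the submitters' processing notes, cutadapt 1.9.1 and HISAT2 2.2.1 were among the tools, beside HTSeq, FastQC and DESeq2, with build GRCm39. The sources used here give neither annotation release nor strand setting, so reads of overlapping genes may not be separable; in GENCODE M21, 131 exonic bases of Srgap1 are shared with Gm48804. Every pair of libraries differed by more than sampling noise (chi-square per degree of freedom at least 2.43).

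After filterByExpr and TMM scaling, the robust quasi-likelihood test of edgeR 4.0.16 was run in R 4.3.3, with treatment as the only term, with Benjamini-Hochberg adjustment over all 14415 genes and a call at an adjusted p under 0.05. SE and interval came from the fold change and its F statistic. Marker sums were scaled by library totals alone. Log2 CPM used a prior count of 2. Lengths came from GENCODE M21 (GRCm38) by symbol. Correlations used 100000 permutations, two-sided. The edgeR steps alone were run on simulated counts, drawn independently for each gene, which does not cover correlation between genes. Alternatives used DESeq2 1.42.0 and limma 3.58.1 among others.

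The members and lists were chosen with earlier results of these data known. Named genes were the members, the 4 most abundant tested genes of each list, the 5 genes most correlated with Slit2 and with Robo1, and Bgn.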

Additional observations from a re-analysis of the deposited data

Results flagged for a closer look

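Of 64 groups of 5 libraries checked (32 named genes in BGN and in Control), 1 held a library far from the others: Rhoa in Control replicate 5 stood at 446 CPM, against 495 to 502 CPM in the other 4 Control libraries. Chance flags about 1 in 20 groups. The same library had the lowest share of mitochondrially encoded counts, and the part of that in its Rhoa value was not tested.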

How the results depend on the processing

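No tested member was called under any of the 18 alternative fits. Slit2 kept a log2 fold change of 0.21 to 0.28 when single libraries were left out, and its smallest adjusted p was 0.0756, without the filter on low counts. Leaving out single libraries gave ranges of -0.23 to 0.47 for Slit1, -0.011 to 0.12 for Robo1, 0.069 to 0.15 for Robo2 and 0.0082 to 0.16 for Srgap1. With no filter on low counts, 3 genes passed in place of 0, none of them a member. By coding length, and without the replicates numbered 5, Slit2 ranked 4 and Srgap1 3 by level per length. Without single libraries the list medians were 0.010 to 0.081 for netrins, 0.020 to 0.041 for downstream genes (0.044 with all libraries, 0.018 without both replicates numbered 5), -0.014 to 0.024 for SLIT binding and -0.017 to 0.0056 for effectors. The cause of these shifts was not tested.

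The signs of list genes near 0 turned under some settings. With limma-voom Cdc42 was at -0.0029, Rhoa at -0.017 and Unc5b at 0.029, and without the replicates numbered 5 of both groups at -0.020, -0.030 and 0.055. With library totals as the only scaling Rhoa was at -0.0033. Leaving out single libraries gave ranges of -0.019 to 0.030 for Cdc42, -0.030 to 0.011 for Rhoa, -0.054 to 0.047 for Unc5b and -0.0090 to 0.042 for Ctnnb1. Other named list genes kept their sign without single libraries but moved, such as Snai2 (0.0082 to 0.097), Rac1 (0.0014 to 0.060), Dag1 (0.010 to 0.059), Hs6st1 (0.0067 to 0.054), Ntn4 (0.048 to 0.13), Neo1 (0.014 to 0.057) and Myc (0.0088 to 0.044).

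Same-numbered libraries of the groups showed little likeness: their deviations correlated at -0.031 to 0.27, and 1 of 5 correlated best with its own number. With 5 libraries per group, this cannot decide whether they were paired. With the replicate number as a block 0 genes passed, and 825 had an unadjusted p under 0.05 by edgeR, against 694 without it. Slit2 was then at 0.25 ± 0.053 (SE, adjusted p = 0.400 by edgeR), Slit1 at 0.14 ± 0.29 and Robo1 at 0.038 ± 0.059. Robo2 was at 0.11 ± 0.068 and Srgap1 at 0.078 ± 0.088. Without the block the SE was 0.052 for Slit2, 0.46 for Slit1, 0.12 for Robo1, 0.062 for Robo2 and 0.10 for Srgap1. Depth limits Slit3, Robo3 and Robo4, which had at most 4 counts in any library.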
